A study of Mus musculus with 7 samples.

Results

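The basement membrane genes examined here are 10 genes for secreted matrix proteins: the laminin chains Lama1, Lama5, Lamb1 and Lamc1, the collagen IV chains Col4a1 and Col4a2, the nidogens Nid1 and Nid2, the heparan sulphate proteoglycan perlecan (Hspg2), and the collagen-binding glycoprotein Sparc. They were chosen by symbol from a table of 52636 genes, and all 10 were found, each with 1 Ensembl ID, and passed the filter on low counts that left 16248 genes for testing. They were measured by RNA-seq in 7 libraries of inner cell mass from mouse embryos, the part of the blastocyst that gives rise to epiblast and primitive endoderm. The 7 libraries were 3 from embryos given ethanol as the vehicle for 4 h, with the time label 0 h, and 4 from embryos given 250 nM 4-hydroxytamoxifen, called tamoxifen here, for 4 h, with the time label 4 h.

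Embryos of both groups had the genotype Sox2Cre;CRAFR26, with a cRAF construct through which tamoxifen induces ERK, per the series text, and a Cre driven by Sox2. Flushed at E2.5, they all spent 24 h in KSOM medium with the FGF receptor inhibitor PD173074 at 250 nM. The mice descend from 2 clones of targeted embryonic stem cells, clone 4 and clone 8, and each library was a pool of 10 inner cell masses freed of trophectoderm by immunosurgery and labelled E3.5 epiblast. Libraries are named here by clone and number. The vehicle group holds clone4_1, clone4_2 and clone8_1, and the tamoxifen group holds these names and clone8_2 besides. A further vehicle sample failed the submitters' quality control, so clone 8 has 1 vehicle library. The embryos behind libraries of the same number are not stated to be related, and p-values measure only the spread between these pools.

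A basement membrane is a thin sheet of matrix that lies under an epithelium. Laminin is secreted as a trimer of an alpha, a beta and a gamma chain and polymerises on the cell surface, collagen IV trimers form a second, covalently linked network, and nidogens and perlecan connect both. In the blastocyst the primitive endoderm is known as the main producer of this sheet, which it lays down against the epiblast, and its parietal derivative goes on to secrete the thick Reichert's membrane. ERK signalling downstream of FGF receptors is known to favour primitive endoderm over epiblast.

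Total counts ranged from 22981498 to 42294719 per library. Vehicle clone8_1 was short of short transcripts: protein-coding genes whose typical transcript is under 1000 nt deviated by a median of -1.29 (log2) there from their median over the libraries, against -0.038 to 0.22 in the other libraries, and 0.013 for genes of 2000 nt or more. Sparc, with a typical transcript of 1366 nt, was the only one of the 10 genes under 2000 nt, and the others had typical transcripts of 4876 to 14181.5 nt. Protein-coding genes of 1000 to 2000 nt, the class of Sparc, deviated by a median of 0 in each of the 7 libraries. Each gene is set against its own median over the libraries, which draws such medians to 0. This value therefore does not tell whether Sparc was affected in vehicle clone8_1. The label of the samples is epiblast, and the epiblast marker Nanog had 427.5 to 704.5 CPM (library-size units after TMM normalisation) and Pou5f1 had 484.1 to 591.6 CPM over the 7 libraries. Trophectoderm markers were also abundant. The sum over 12 of them ranged from 8911 to 11612 CPM in vehicle and from 6856 to 9907 CPM in tamoxifen libraries, against 2542 to 3039 CPM and 2635 to 3538 CPM for 12 epiblast markers. Most of the trophectoderm sum came from the keratins Krt18 and Krt8, with vehicle means of 3320 and 3176 CPM. Sums over different genes are not shares of cells. For 12 primitive endoderm markers the sum was 1159 to 1412 CPM in vehicle and 1012 to 1267 CPM in tamoxifen libraries. Most of it came from Dab2 (560.2 to 823 CPM) and Lrp2 (214 to 397 CPM). Of the others, Gata6 had 56.7 to 150.6 CPM, and Gata4 averaged 1.19 CPM in vehicle and 1.68 CPM in tamoxifen libraries. The later endoderm factors Foxa2, Foxq1 and Sox7 had at most 12 counts in any library. In pooled tissue, fewer cells of a type and less RNA per cell cannot be told apart.

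The collagen IV pair and Lama5 are shown first as sequences, because Col4a1 and Col4a2 start from the same stretch of DNA and Lama5 is the abundant laminin alpha chain of these libraries. Col4a1 lies on the minus strand of chromosome 8 (11198423 to 11312826, GRCm38) and Col4a2 on the plus strand (11312805 to 11449287). Their first exons overlap head to head over 22 bases, the stretch chr8:11312805-11312826 given here from RefSeq (GRCm38.p6) on the plus strand. For Lama5 (chromosome 2, 180176373 to 180225859, minus strand) the 250 bases before the start are given 5′ to 3′ on the minus strand, chr2:180225860-180226109. Capitals mark each match to the GC box GGGCGG or its reverse complement.
Col4a2 and Col4a1 shared start: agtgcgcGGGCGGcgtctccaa
Lama5 upstream: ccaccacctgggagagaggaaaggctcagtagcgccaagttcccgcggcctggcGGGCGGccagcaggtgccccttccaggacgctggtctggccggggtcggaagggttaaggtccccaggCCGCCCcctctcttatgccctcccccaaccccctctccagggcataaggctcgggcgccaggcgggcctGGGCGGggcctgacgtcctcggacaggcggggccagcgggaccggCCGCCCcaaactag

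Of the 10 genes, 7 had a RefSeq promoter entry (all but Lama1, Lamc1 and Nid2). Letters of 5 motifs were searched on both strands of the 250 bases before the start, and no match overlapped a match of another motif. AGATAA, read by GATA factors, had no match in the 7 windows and was present in 9.99% of 32851 windows of the same length. TGACTCA, the AP-1 motif, also had none, against 4.46% of all windows. CCGGAA, read by ETS factors, which ERK is known to act on, had 1 match, upstream of Nid1, against 12% of all windows. The GC box GGGCGG was found upstream of Lama5 (4 matches), Lamb1 (2), Col4a2 (2), Nid1 (1) and Hspg2 (5), against 32.7% of all windows. The letters CCAAT were found upstream of Lamb1, Col4a1, Col4a2 and Nid1 (1 match each), against 33.8%. Sparc had a match to none of the 5. The 7 windows had from 54% (Sparc) to 74.4% (Col4a1) GC, and the shares over all windows were not matched for GC content. With 7 windows, the lack of a match to the rarer motifs says little. Among 27025 genes with such windows, 2.41% had a start that overlapped the start of a gene on the other strand within 300 bases in the way that Col4a1 and Col4a2 do.

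Counted per kilobase of transcript, so that genes of different length can be set side by side, the order of the levels over the 7 libraries was Sparc, Lamb1, Nid1, Lama5, Col4a1, Lamc1, Col4a2, Nid2, Lama1 and Hspg2. Sparc stood at 43.3 ± 12.3 CPM per kb (SD, n = 7), above Lamb1 at 19.1 ± 4.42 CPM per kb (SD, n = 7), and the ranges of these 2 genes did not overlap. Hspg2 stood last at 0.315 ± 0.169 CPM per kb (SD, n = 7), below Lama1 in each of the 7 libraries although their ranges overlapped. Between the extremes neighbours were close: the ranges of Lamb1 and Nid1 overlapped, as did those of each next pair down to Nid2. Nid2, at 2.80 ± 1.30 CPM per kb (SD, n = 7), lay above Lama1, at 0.835 ± 0.484 CPM per kb (SD, n = 7), in each of the 7 libraries and without overlap of their ranges. With the length of all annotated exons in place of the typical transcript, Sparc stayed first at 15.6 CPM per kb with a range that overlapped that of Nid1, and Nid1 (13.5) moved above Lamb1 (10.9). The remaining 7 genes kept their order.

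**Figure D1:**
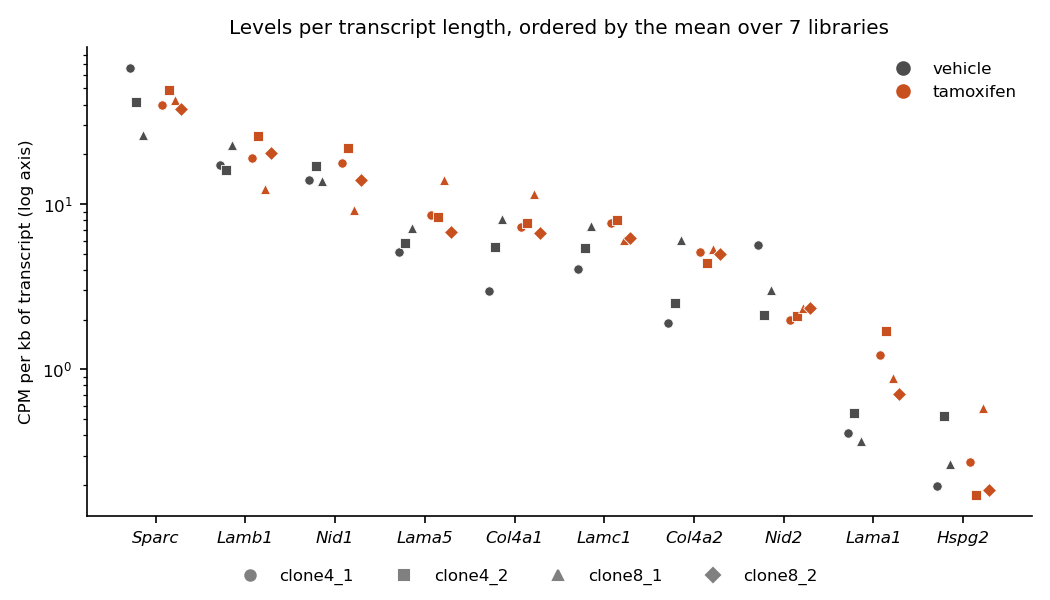
Level of each basement membrane gene in each library, in CPM per kb of typical transcript on a log axis, with genes ordered by the mean over 7 libraries, colours for condition and symbols for clone and number. Sparc lies highest in all libraries, and Lama1 and Hspg2 lie lowest, with Lama1 lower in each vehicle library than in any tamoxifen library.

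The comparison of tamoxifen with vehicle asked whether these genes respond to 4 h of ERK induction in the presence of the FGF receptor inhibitor. None of the 10 passed the test: at an adjusted p under 0.05 (quasi-likelihood test of edgeR, adjusted by Benjamini-Hochberg over 16248 genes) 0 were called, as in the whole table, where 0% were called and 970 genes had an unadjusted p under 0.05. DESeq2 called 4 genes and limma-trend 0, none of them among the 10. The fold changes and levels that follow are therefore values and not calls. An unadjusted p under 0.05 was found for 3 of the 10 genes, the laminin alpha chains Lama1 and Lama5 with higher and Nid2 with lower values under tamoxifen, against 5.97% of all genes tested (2.69% higher and 3.28% lower). The groups did not overlap in 1 of the 10 genes, Lama1, against 8.45% of all genes (3.71% higher and 4.74% lower under tamoxifen). The log2 fold change was above 0 in 7 of the 10, against 51.7% of all genes, and its median was 0.19, against 0.019 over all genes. Summed over the 10 genes, the level was 429, 434 and 501 CPM in vehicle clone4_1, clone4_2 and clone8_1, and 531, 610.1, 529.6 and 474 CPM in tamoxifen clone4_1, clone4_2, clone8_1 and clone8_2, so that the groups overlapped through tamoxifen clone8_2.

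Laminin alpha chains carry the globular domains that bind integrins and dystroglycan on the cell surface. Lama1 (ENSMUSG00000032796, chromosome 17, 67697259 to 67822647, plus strand) encodes the alpha 1 chain of embryonic laminin. It was counted at 3.92, 5.20 and 3.51 CPM in vehicle clone4_1, clone4_2 and clone8_1, from 144 to 167 counts. In tamoxifen clone4_1, clone4_2, clone8_1 and clone8_2 it had 11.6, 16.3, 8.45 and 6.75 CPM, from 234 to 490 counts. The lowest tamoxifen value lay above the highest vehicle value, and both clone 4 libraries lay above both clone 8 libraries under tamoxifen. Its log2 fold change was 1.35 ± 0.36 (SE; 95% interval 0.54 to 2.16; unadjusted p = 0.00394, adjusted p = 0.794, edgeR). It was between 1.07 and 1.53 when each library was left out in turn, and the smallest adjusted p over 17 alternatives was 0.146, with DESeq2.

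Lama5 (ENSMUSG00000015647), the alpha 5 chain, which accompanies epithelia in most tissues, was the more abundant alpha chain. It had 58.3, 66.0 and 81.4 CPM in the vehicle libraries, in the order above, and 97.1, 95.1, 160.2 and 77.0 CPM in the tamoxifen libraries. Tamoxifen clone8_1 was highest, and the groups overlapped because tamoxifen clone8_2 lay under vehicle clone8_1. The log2 fold change was 0.65 ± 0.25 (SE; 95% interval 0.079 to 1.21; unadjusted p = 0.0295, adjusted p = 0.794, edgeR), and 0.39 without tamoxifen clone8_1. Per kilobase, Lama1 made up 4.90% to 8.61% of the 2 alpha chains together in vehicle and 5.93% to 17.0% in tamoxifen libraries. The share was above the vehicle range in 3 of the 4 tamoxifen libraries, the exception being clone8_1.

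The beta 1 and gamma 1 chains are shared by most laminin trimers of the embryo, and the gamma 1 chain binds nidogen. Lamb1 (ENSMUSG00000002900, chromosome 12, 31265234 to 31329644, plus strand) had 98.1, 90.9 and 129 CPM in vehicle libraries and 108, 146, 70.3 and 115 CPM in tamoxifen libraries. The highest and the lowest value both fell in the tamoxifen group, in clone4_2 and clone8_1. The log2 fold change was 0.051 ± 0.24 (SE; 95% interval -0.49 to 0.59; adjusted p = 0.971, edgeR). Lamc1 (ENSMUSG00000026478, chromosome 1, 153218922 to 153332786, minus strand) had 30.7, 41.3 and 55.8 CPM in vehicle and 58.7, 60.6, 46.0 and 47.3 CPM in tamoxifen libraries. Vehicle clone8_1 lay among the tamoxifen libraries, and the other vehicle libraries lay below all of them. The log2 fold change was 0.32 ± 0.23 (SE; 95% interval -0.19 to 0.82; adjusted p = 0.803, edgeR), 0.11 without vehicle clone4_1 and 0.55 without vehicle clone8_1.

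A laminin trimer holds 1 chain of each kind, so the ratios of the transcripts per kilobase were compared within libraries. Lamb1 exceeded Lamc1 in each library, by a ratio of 2.06 to 4.29. The alpha chains together exceeded Lamc1 as well, by 1.03 to 1.37 in vehicle and by 1.27, 1.26, 2.48 and 1.20 in tamoxifen clone4_1, clone4_2, clone8_1 and clone8_2. Lamb1 was thus the most abundant chain in all libraries but tamoxifen clone8_1, where its ratio to the alpha chains was 0.83, against 1.95 to 3.13 elsewhere. That library combined the highest Lama5 value of the 7 with the lowest Lamb1 value. The groups overlapped in each of these 3 ratios. These ratios use typical transcripts, and the size of the Lamb1 excess depends on the length used. Over 7 libraries Lamb1 and Lamc1 averaged 19.1 and 6.38 CPM per kb of typical transcript. Per kb of all annotated exons they averaged 10.9 and 5.88 CPM.

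**Figure D2:**
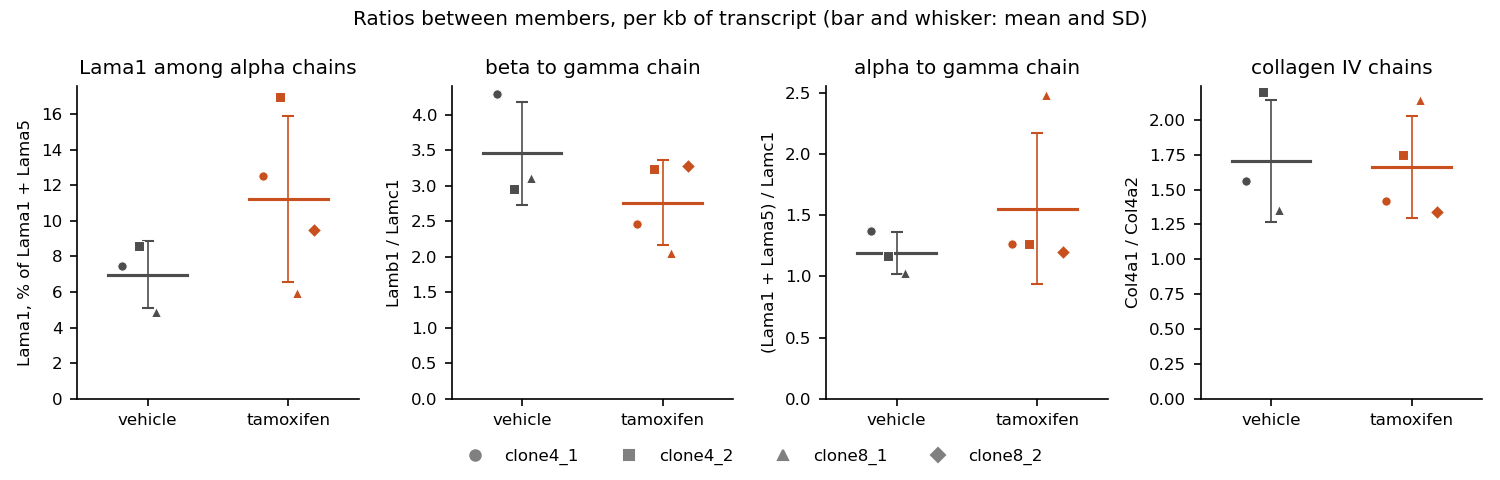
Ratios between basement membrane transcripts per kb in each library, by condition on the x axis, with the mean and SD of each group as bar and whisker and symbols for clone and number. Lama1 ranges from 4.90% to 17.0% of the alpha chains, and the groups overlap in all 4 panels.

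Collagen IV of early embryos is a trimer of alpha 1 chains (Col4a1) and an alpha 2 chain (Col4a2). Col4a1 had 19.6, 36.5 and 53.9 CPM in vehicle and 47.9, 50.9, 76.0 and 44.2 CPM in tamoxifen libraries. Col4a2 had 12.2, 16.2 and 38.8 CPM in vehicle and 32.9, 28.4, 34.6 and 32.2 CPM in tamoxifen libraries. For both genes, both clone 4 vehicle libraries lay below all tamoxifen libraries, while vehicle clone8_1 lay above 3 of the tamoxifen libraries for Col4a1 and above all 4 for Col4a2. The log2 fold changes were 0.58 ± 0.33 (SE; 95% interval -0.15 to 1.30; adjusted p = 0.794, edgeR) for Col4a1 and 0.51 ± 0.35 (SE; 95% interval -0.27 to 1.30; adjusted p = 0.803, edgeR) for Col4a2. Without vehicle clone8_1 they were 0.96 and 1.16, and without vehicle clone4_1 they were 0.26 and 0.19.

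Starting from the DNA stretch printed above, Col4a1 was the more abundant of the pair in each library. The ratio of Col4a1 to Col4a2 per kilobase was 1.56, 2.20 and 1.35 in vehicle clone4_1, clone4_2 and clone8_1 and 1.42, 1.75, 2.14 and 1.34 in the tamoxifen libraries. The group means were 1.70 ± 0.438 (SD, n = 3) and 1.66 ± 0.364 (SD, n = 4), a difference within the spread of either group. Col4a1 itself varied 3.88-fold and Col4a2 3.17-fold between its lowest and highest library, both with vehicle clone4_1 lowest. The other collagen IV chains, Col4a3, Col4a4, Col4a5 and Col4a6, which are found in some later basement membranes, had at most 5 counts in any library and were not tested.

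Nidogens bridge laminin and collagen IV. Nid1 (ENSMUSG00000005397, chromosome 13, 13437551 to 13512269, plus strand) had 85.1, 103 and 84.2 CPM in vehicle and 108, 133, 55.7 and 85.3 CPM in tamoxifen libraries. Like Lamb1, it was highest in tamoxifen clone4_2 and lowest in tamoxifen clone8_1, and its log2 fold change was 0.070 ± 0.26 (SE; 95% interval -0.52 to 0.66; adjusted p = 0.960, edgeR). Nid2 (ENSMUSG00000021806, chromosome 14, 19751265 to 19811787, plus strand), its less abundant relative, had 27.5, 10.4 and 14.8 CPM in vehicle and 9.71, 10.3, 11.4 and 11.4 CPM in tamoxifen libraries. The tamoxifen libraries were close together, and vehicle clone4_2 lay among them. For Nid2 the log2 fold change was -0.71 ± 0.32 (SE; 95% interval -1.43 to -0.00029; unadjusted p = 0.0499, adjusted p = 0.794, edgeR), and -0.25 without vehicle clone4_1. Exons of Nid2 overlap exons of Rtraf on the other strand by 437 bases. Rtraf had 198, 179 and 115 CPM in vehicle and 161, 146, 168 and 168 CPM in tamoxifen libraries. Both genes were highest in vehicle clone4_1, but vehicle clone8_1, the lowest library for Rtraf, was the next highest for Nid2. Whether reads in the overlap were counted by strand is not given in the sources used here.

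Perlecan carries heparan sulphate chains that hold growth factors, FGFs among them, in the matrix. Hspg2 (ENSMUSG00000028763, chromosome 4, 137468769 to 137570630, plus strand) had 2.78, 7.41 and 3.78 CPM in vehicle and 3.88, 2.46, 8.31 and 2.62 CPM in tamoxifen libraries, from 57 to 238 counts. Each group held 1 library far above the rest of its group, vehicle clone4_2 and tamoxifen clone8_1. Hspg2 had a log2 fold change of -0.11 ± 0.52 (SE; 95% interval -1.27 to 1.05; adjusted p = 0.971, edgeR), the widest interval of the 10. Sparc (ENSMUSG00000018593, chromosome 11, 55394500 to 55423183, minus strand), a glycoprotein that binds collagen IV and is abundant in parietal endoderm, had 90.4, 56.9 and 35.5 CPM in vehicle and 54.4, 67.2, 58.6 and 51.4 CPM in tamoxifen libraries. The tamoxifen libraries lay within the range of the vehicle libraries. Its log2 fold change was -0.075 ± 0.28 (SE; 95% interval -0.69 to 0.54; adjusted p = 0.959, edgeR), and it was 0.31 without vehicle clone4_1.

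**Figure D3:**
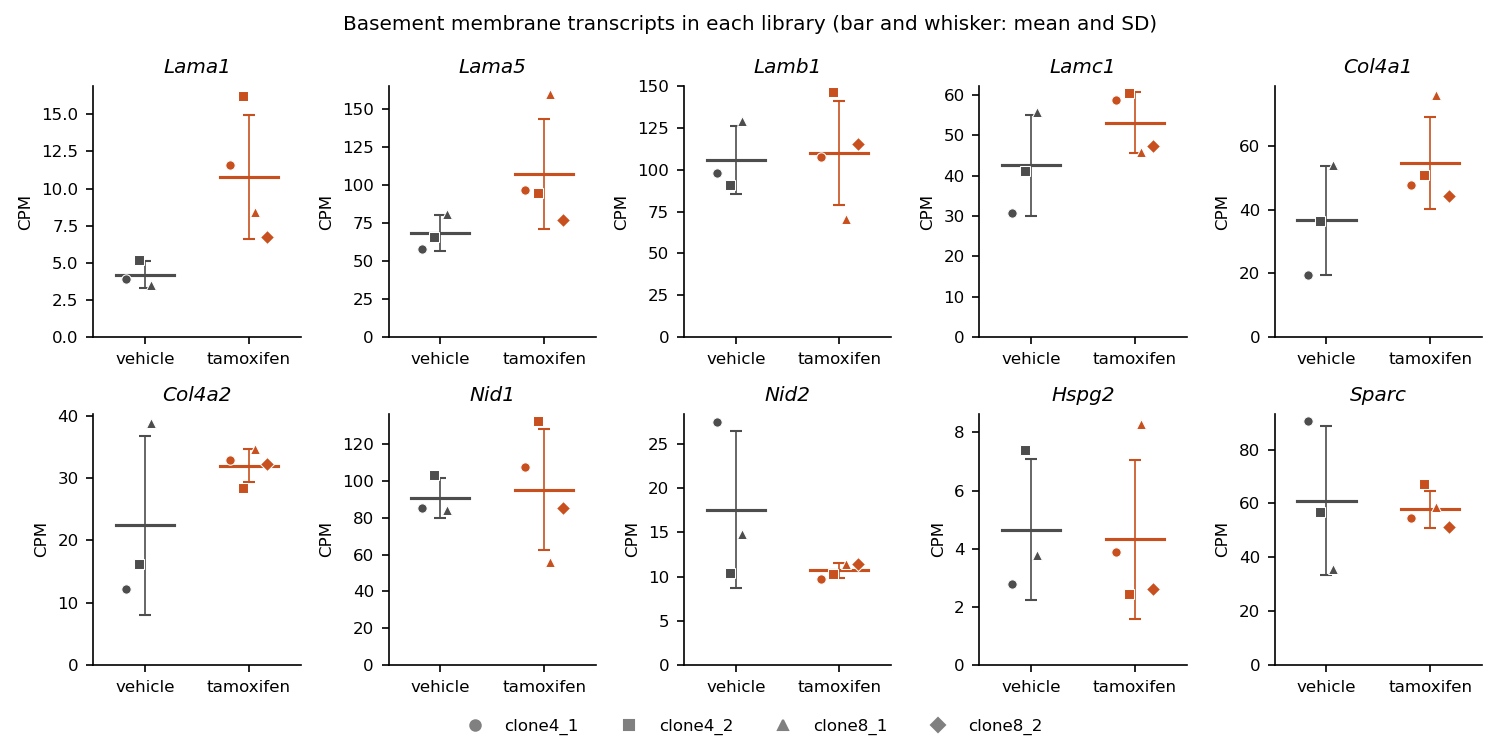
Expression of each basement membrane gene in CPM by condition, 1 panel per gene, with 1 symbol per library (shape for clone and number) and the mean and SD of each group as bar and whisker. Only in the Lama1 panel do all tamoxifen libraries (6.75 to 16.3 CPM) lie above all vehicle libraries (3.51 to 5.20 CPM).

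**Figure D4:**
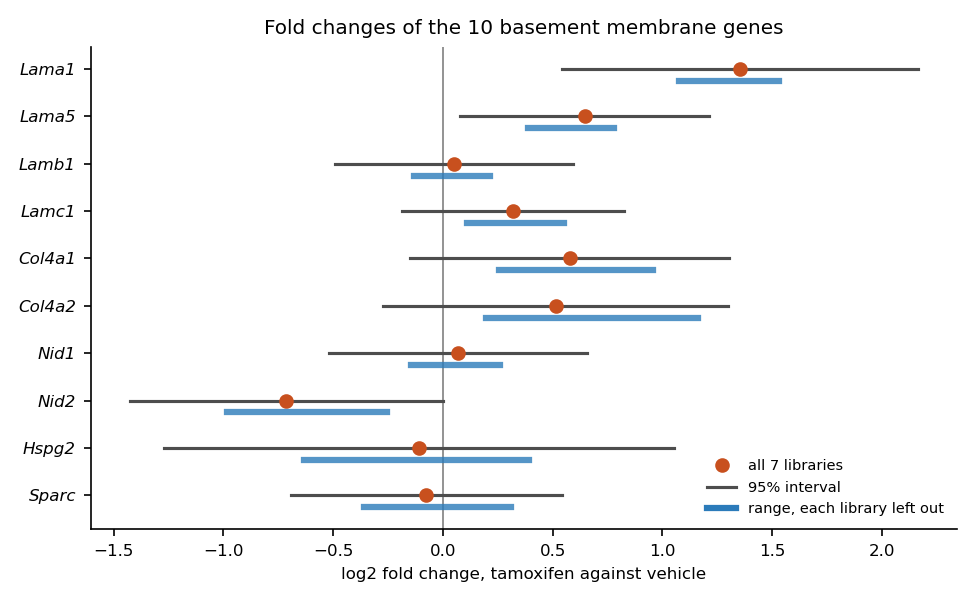
Log2 fold change of tamoxifen against vehicle for each gene (points, all 7 libraries) with its 95% interval (thin lines) and the range of values when each library is left out in turn (thick blue lines). The intervals of Lama1, Lama5 and Nid2 exclude 0, while those of the other 7 genes include it.

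The 10 genes did not follow a common order of libraries. The highest value fell in tamoxifen clone4_2 for 4 genes (Lama1, Lamb1, Lamc1 and Nid1), in tamoxifen clone8_1 for 3 (Lama5, Col4a1 and Hspg2), in vehicle clone4_1 for 2 (Nid2 and Sparc) and in vehicle clone8_1 for 1 (Col4a2). Vehicle clone4_1 held the lowest value for 4 genes (Lama5, Lamc1, Col4a1 and Col4a2). It was thus the highest library for Nid2 and Sparc and the lowest for the collagen IV pair. The mean of the centred log2 CPM over the 10 genes ran from -0.32 in vehicle clone4_1 to 0.23 in tamoxifen clone4_2. Among 8045 other genes with a mean of at least 10 CPM, those with a small root mean square distance from this profile over the 7 libraries included Cops6 (0.052), Dnajb2 (0.057), Cdk5rap1 (0.062) and Ampd2 (0.063). The members themselves lay farther from it, from 0.20 for Lamc1 to 0.65 for Hspg2. The other genes were picked by this distance out of 8045, so this contrast follows from the choice and is a description only.

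Each clone was also looked at alone. Within clone 4, with 2 libraries per condition, an unadjusted p under 0.05 (edgeR) was found for 5 of the 10, each higher under tamoxifen, against 7.87% of 16060 genes tested, and 0 were called after adjustment, as in the whole fit (0%). The log2 fold changes in that fit were 1.60 for Lama1, 0.62 for Lama5, 0.72 for Lamc1, 0.81 for Col4a1 and 1.10 for Col4a2. In clone 8, with 1 vehicle library and no test of its own, the differences for these genes were 1.11, 0.54, -0.26, 0.16 and -0.22 on the log2 scale. For the interaction of clone and condition 0 of the 10 genes were called in edgeR, against 3.16% of all genes, and Col4a2 had the smallest p among them (-1.32 on the log2 scale; unadjusted p = 0.00974, adjusted p = 0.158, edgeR). With DESeq2 Col4a2 was called, at an adjusted p of 0.0367, among 1016 genes called in all. Since clone 8 has 1 vehicle library, a difference between clones and a deviation of vehicle clone8_1 cannot be told apart.

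The partners of these genes were taken from 7 lists of 79 genes in all, of which 59 were tested and 0 were called (edgeR; 3 higher and 1 lower at an unadjusted p under 0.05, against 5.97% of all genes in either direction). Their median log2 fold change was 0.011, with 30 above 0 and 29 below. Several other laminin chains were low or absent. Lama2 and Lamb3 had at most 16 and 19 counts, and Lamc3 had 0 counts in each library. Lama3, an alpha chain of epithelial laminin, averaged 15.4 ± 5.67 CPM (SD, n = 3) with vehicle against 11.9 ± 2.13 CPM (SD, n = 4) with tamoxifen. Its vehicle mean rests on clone8_1 (21.8 CPM), and its log2 fold change was -0.37 with that library and -0.038 without it. Of 13 other matrix components 11 were tested, and the groups did not overlap in 1, against 8.45% of all genes. This was Col18a1 (collagen XVIII), at 0.654 to 0.999 CPM in vehicle and 1.16 to 1.81 CPM in tamoxifen libraries, from 21 to 61 counts (log2 fold change 0.81 ± 0.53, SE).

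Of 16 receptors for basement membrane proteins 15 were tested, with a median log2 fold change of 0.11. Itga3, the integrin alpha 3 subunit that binds laminin, had 13.6, 16.5 and 20.6 CPM in vehicle and 23.8, 24.7, 19.8 and 27.3 CPM in tamoxifen libraries (log2 fold change 0.50 ± 0.22, SE; unadjusted p = 0.0497, adjusted p = 0.794, edgeR). Itgb4, the integrin beta 4 subunit of hemidesmosomes, had 18.7, 8.13 and 14.5 CPM in vehicle and 7.70, 2.16, 3.07 and 8.38 CPM in tamoxifen libraries (log2 fold change -1.37 ± 0.49, SE; unadjusted p = 0.0192, adjusted p = 0.794, edgeR). In both genes the groups overlapped through 1 tamoxifen library, clone8_1 for Itga3 and clone8_2 for Itgb4.

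Genes that fold, modify and export collagen mostly had lower means under tamoxifen. Of 17 genes 16 were tested, 13 with a log2 fold change below 0 and 3 above, where 51.7% of all genes were above 0. Their median was -0.14, and 0 had an unadjusted p under 0.05. P4hb, the beta subunit of prolyl hydroxylase, averaged 589 ± 159.7 CPM (SD, n = 3) with vehicle against 482 ± 68.5 CPM (SD, n = 4) with tamoxifen. The log2 difference of -0.29 was -0.51 without vehicle clone4_1 and -0.16 without vehicle clone4_2. Ppib, a prolyl isomerase, averaged 110.8 ± 36.5 CPM (SD, n = 3) against 137 ± 10.2 CPM (SD, n = 4). Its log2 difference was 0.31, and 0.051 without vehicle clone8_1 (69.0 CPM). The typical transcript of Ppib is under 1000 nt, the class in which that library was low. Of 12 genes of matrix turnover 6 were tested. Among them Timp1, an inhibitor of metalloproteinases, had 4.69, 1.84 and 2.22 CPM in vehicle and 9.71, 9.74, 5.45 and 4.66 CPM in tamoxifen libraries, so that only tamoxifen clone8_2 lay within the vehicle range (log2 fold change 1.34 ± 0.45, SE; unadjusted p = 0.0143, adjusted p = 0.794, edgeR). Its typical transcript is also under 1000 nt, and without vehicle clone8_1 the value was 1.16.

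Endoderm transcription factors, several of which are known to act upstream of laminin and collagen IV genes, had 10 genes on their list, of which 7 were tested. All 7 had a log2 fold change above 0, against 51.7% of all genes. Their median was 0.47, against 0.019 over all genes, and 0 were called. Gata6, Gata4, Sox17 and Hnf4a are also among the 12 primitive endoderm markers, whose median was 0.00013. The 7 include Sall4 (0.12 ± 0.17, SE) and Klf5 (0.095 ± 0.33, SE), which are not particular to endoderm and had the smallest values. Sox17, which primitive endoderm cells express from the blastocyst stage, had 0.298, 4.24 and 4.34 CPM in vehicle and 17.0, 7.80, 27.1 and 18.9 CPM in tamoxifen libraries, with no overlap (log2 fold change 2.58 ± 0.75, SE; unadjusted p = 0.00617, adjusted p = 0.794, edgeR). Without vehicle clone4_1, where Sox17 had 12 counts, its log2 fold change was 2.03. Tamoxifen clone4_2, the lowest of its group for Sox17, was the highest for Lama1. Gata6 was highest in tamoxifen clone8_1 (150.6 CPM against 56.7 to 77.7 CPM elsewhere), which was the highest library for Lama5, Col4a1 and Hspg2 and the lowest for Lamb1 and Nid1.

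**Figure D5:**
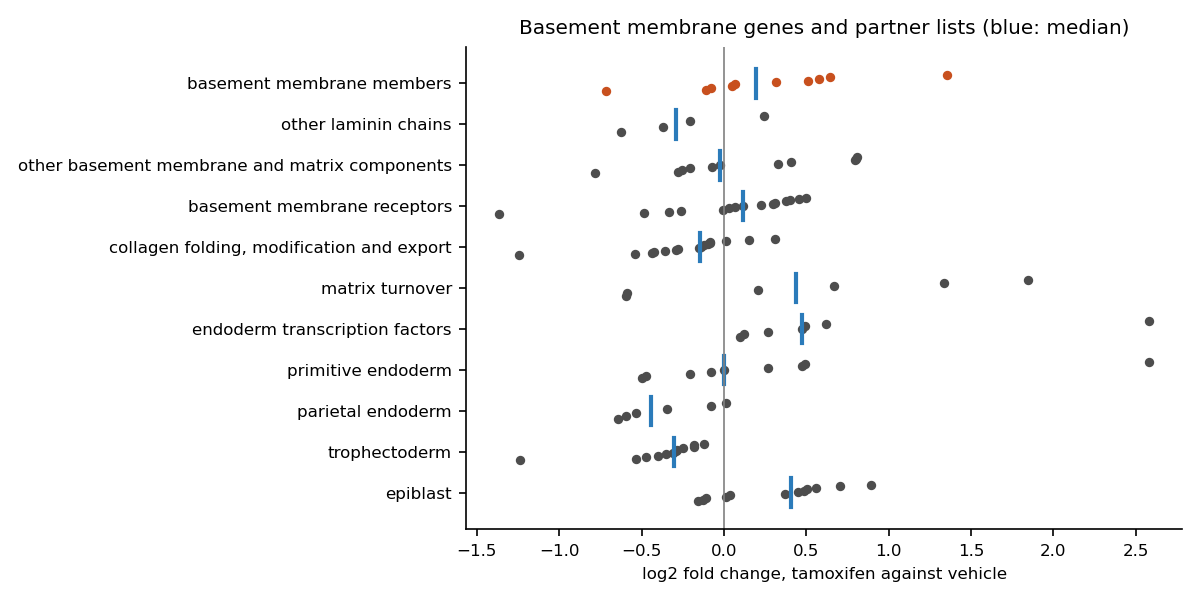
Log2 fold change of tamoxifen against vehicle for the genes tested in each list, 1 point per gene, with the median of each list as a blue bar. The 10 basement membrane genes (top, orange) have a median of 0.19, collagen folding genes a median of -0.14, and all 12 trophectoderm markers lie below 0.

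Markers of the cell types that inner cell mass pools can hold are given beside these values. Of 12 primitive endoderm markers other than matrix genes 9 were tested, 5 with a log2 fold change above 0, with a median of 0.00013. Their summed level was 1159 to 1412 CPM with vehicle and 1012 to 1267 CPM with tamoxifen. Most of it came from Dab2 and Lrp2, so the sum says little of the other markers. The transcription factors Sox17 (2.58), Gata4 (0.49), Gata6 (0.47) and Hnf4a (0.27) were above 0, and Cubn was at the median. Pdgfra (-0.50), Amn (-0.078), Dab2 and Lrp2 were below 0. Dab2, an endocytic adaptor, ranged from 639 to 823 CPM with vehicle and from 560.2 to 748 CPM with tamoxifen. Lrp2, the receptor megalin, ranged from 363 to 397 CPM with vehicle and from 214 to 339 CPM with tamoxifen, without overlap (log2 fold change -0.47 ± 0.19, SE; unadjusted p = 0.0314, edgeR). Of 8 parietal endoderm markers 6 were tested, Sparc and the protease gene Plat among them. Of those tested, 5 had a log2 fold change below 0, where 51.7% of all genes were above 0. The median was -0.44. The sum over the 8 was 66.0 to 132 CPM with vehicle and 78.8 to 100.4 CPM with tamoxifen. Sparc itself gave 35.5 to 90.4 CPM and 51.4 to 67.2 CPM of it, so the sum is not a measure apart from Sparc.

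All 12 trophectoderm markers had lower means under tamoxifen, with a median log2 fold change of -0.30, where 51.7% of all genes were above 0, and 3 of them had an unadjusted p under 0.05, against 3.28% of all genes in that direction. These were the transcription factors Gata3 (-0.47 ± 0.14, SE) and Elf3 (-0.53 ± 0.18, SE) and the keratin Krt7 (-1.24 ± 0.49, SE). For Krt7 the groups overlapped, and without vehicle clone4_1 (71.2 CPM against 21.6 and 23.7 CPM) the value was -0.48. The most abundant, the keratins Krt18 and Krt8, had 1969 to 4127 CPM and 2250.0 to 3837 CPM over the 7 libraries. Of 12 epiblast markers 9 had a log2 fold change above 0, with a median of 0.41, Klf4 with the only unadjusted p under 0.05 (0.49 ± 0.19, SE; unadjusted p = 0.0305, edgeR), while Nanog (-0.16 ± 0.21, SE, and -0.0012 without vehicle clone8_1) and Pou5f1 (-0.13 ± 0.14, SE) were below 0. None of these markers was called. The part of these cell types in the values of the basement membrane genes was not tested.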

How the data were processed

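The deposited table holds raw counts per Ensembl gene, with 1 column per library and no normalization by the authors. The submitters' processing notes name bcl2fastq 2.19.1, STAR 2.5.3a and the build mm10 (GRCm38). The counting program, the annotation, the strand setting and the handling of duplicate reads are not given in the sources used here. Libraries were made from 2 ng of RNA with a low-input amplification kit, per the labels' protocols, and the counts are not independent molecules.

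Of 52636 genes, 52489 matched GENCODE M21 by ID, which gave symbols, coordinates and lengths. A typical length is the median over protein-coding transcripts of the basic set. The test was the quasi-likelihood F test of edgeR 4.0.16 (R 4.3.3) on these counts, with TMM factors, the package's expression filter by group and no term besides condition. P-values had Benjamini-Hochberg adjustment over all genes tested and calls at an adjusted p under 0.05. CPM values carry TMM factors, log2 CPM a prior count of 2, and standard errors are the fold change divided by the square root of the F statistic. The test was checked on simulated data. Alternatives were leaving out each library or both libraries numbered clone8_1, clone as a term, clone 4 alone, a replicate block, other scaling and filters, DESeq2 1.42.0 and limma 3.58.1.

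All 10 members were named. From the partner lists a gene was named at an unadjusted p under 0.05 or without overlap of the groups, otherwise the 2 highest per kb. Of the marker lists the 2 highest and those at an unadjusted p under 0.05 were named, and over all genes the 5 with a mean of at least 10 CPM nearest to the mean member profile. Some genes that this rule names are not reported here. Gata6, Gata4, Sall4, Klf5, Foxa2, Foxq1, Sox7, Lama2, Lamb3, Lamc3, Col4a4, Col4a6 and Rtraf were named after their values were seen. The members and lists were chosen with earlier results of these data known.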

Additional observations from a re-analysis of the deposited data

How the results depend on the processing

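Under the 17 alternatives 0 of the 10 basement membrane genes were called by condition. Over all genes, 4 were called with DESeq2 and 2 with both libraries numbered clone8_1 left out. The number of the 10 genes with an unadjusted p under 0.05, a count added after the data were seen, was 3 with all libraries, from 1 to 6 when each library was left out in turn (1 without vehicle clone4_1 or without tamoxifen clone8_1, 6 without vehicle clone8_1), 5 with both libraries numbered clone8_1 left out and 5 in clone 4 alone. For the interaction, DESeq2 called 1 of the 10 genes, Col4a2, where edgeR called 0; it could not be fitted without vehicle clone8_1. Lama1, Lama5, Lamc1, Col4a1, Col4a2 and Nid2 kept their direction under all 17 alternatives. The direction turned for Lamb1 with the replicate block (-0.016) and when libraries were left out (-0.13 to 0.22), for Nid1 when libraries were left out (-0.14 to 0.26), for Hspg2 with the replicate block (0.049) and when libraries were left out (-0.63 to 0.39), and for Sparc with clone as a term (0.069), the replicate block (0.078), limma-trend (0.020) and libraries left out (-0.36 to 0.31). Among the named partners and markers it turned for Lama3 (0.037 with both libraries numbered clone8_1 left out and 0.16 in clone 4 alone) and for Nanog (0.079 and 0.18 in the same fits). The cause was not tested. Same-numbered libraries did not deviate together (r from -0.068 to 0.021 over 16248 genes), so the replicate block is given as an alternative only, and under it Lama1, Lama5 and Col4a1 had an unadjusted p under 0.05 while Nid2 did not. The prior count of 0.5 moved the mean log2 difference of none of the 10 genes by more than 1 SD. TMM factors from transcripts of at least 2000 nt shifted the median of all genes to 0.074 and the genes at an unadjusted p under 0.05 from 437 higher and 533 lower to 524 and 383. Depth limits Hspg2 and Lama1 most, with 57 to 238 and 144 to 490 counts per library, and counts from amplified low-input RNA may carry more error than counting alone.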
